A study of Homo sapiens with 6 samples.

Results

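Homologous recombination and Fanconi anemia genes were followed in OE-19 cells after IGF2BP3 knockdown. The set has 37 genes chosen by name for their place in these repair pathways, out of 60480 gene identifiers in the count table, and all 37 were found there. OE-19 is a line derived from an adenocarcinoma of the gastric cardia and is used as a model of adenocarcinoma of the esophagogastric junction (AEG). The study compared 3 libraries of polyA RNA from cells carrying a control hairpin RNA (shControl, here control) with 3 from cells carrying a hairpin against *IGF2BP3*, an RNA-binding reader of m6A (shIGF2BP3, here IGF2BP3 KD), to look for pathways that depend on this protein. Both groups are this 1 established line, and the paper's methods give a single medium for its AEG lines without naming these groups. The control libraries are also described as Puro, a term that the labels do not explain and that the IGF2BP3 KD libraries do not carry, so whether the groups differ in anything besides the hairpin is not known. The labels give neither the hairpin used in each IGF2BP3 KD library nor whether the 3 libraries of a group come from separate cultures, so p-values measure the spread between these libraries, which may be technical.

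Homologous recombination repairs a broken chromosome by copying the intact sister. The ends are cut back by nucleases, BRCA1, PALB2 and BRCA2 act on the single strand, which then invades the sister duplex. The Fanconi anemia pathway unhooks crosslinks between the strands of DNA: a core complex attaches ubiquitin to FANCD2 and FANCI, and nucleases gathered by SLX4 then cut beside the lesion. ATR and its adaptors stall the cell cycle while forks are repaired. Many of these genes are transcribed most strongly when cells enter and pass through S phase, and the promoters of many hold sites for E2F factors.

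The promoters of the members are shown first, since many members hold a letter pattern there that was not used to choose them. RefSeq promoters (GRCh38.p14, from 250 bases before to 50 after the start) could be matched to 35 of the 37 members. *NBN* and *FANCI* had no entry. The common forms of the E2F site are TTCCCGC and the variants TTCGCGC, then also TTGCCGC, and last TTGGCGC. These words were searched on both strands. At least 1 of them occurred in the promoters of 18 of 35 members (51.4%), and in 20.1% of the 11026 promoters of coding genes that were tested. The stretches below surround the word nearest to the start, in capitals, for the 9 members with such a word that were lower in IGF2BP3 KD cells. They are followed by *RAD51AP1* and *FANCF*, which hold a word, were not lower and had log2 fold changes above 0. *BARD1*, *RAD51D*, *XRCC3*, *BRIP1*, *FANCE*, *FANCL* and *EME1* also hold a word and were not lower, and their stretches are left out. The promoter of *BLM* holds 3 words, and those of *FANCA*, *FANCC* and *TOPBP1* hold 2 each. Only the nearest is in capitals, so the stretches of *BLM* and *TOPBP1* show a further word wholly or partly in small letters.
CLSPN, chr1:35769952-35770008, minus strand: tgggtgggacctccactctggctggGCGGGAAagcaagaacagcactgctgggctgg
FANCC, chr9:95317723-95317779, minus strand: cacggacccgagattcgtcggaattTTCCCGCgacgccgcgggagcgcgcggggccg
RAD54L, chr1:46247614-46247670, plus strand: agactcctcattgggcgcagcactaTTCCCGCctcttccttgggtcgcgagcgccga
BLM, chr15:90717324-90717375, plus strand: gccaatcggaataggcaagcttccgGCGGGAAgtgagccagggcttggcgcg
FANCG, chr9:35079995-35080051, minus strand: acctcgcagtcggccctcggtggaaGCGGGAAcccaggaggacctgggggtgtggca
FANCD2, chr3:10026410-10026466, plus strand: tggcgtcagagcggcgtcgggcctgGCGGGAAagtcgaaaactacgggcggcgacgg
FANCA, chr16:89816618-89816651, minus strand: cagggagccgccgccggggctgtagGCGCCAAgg
TOPBP1, chr3:133661917-133661973, minus strand: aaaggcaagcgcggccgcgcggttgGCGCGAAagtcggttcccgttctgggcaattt
XRCC2, chr7:152676112-152676145, minus strand: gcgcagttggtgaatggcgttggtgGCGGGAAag
RAD51AP1, chr12:4538844-4538900, plus strand: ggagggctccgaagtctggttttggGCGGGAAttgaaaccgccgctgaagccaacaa
FANCF, chr11:22625794-22625847, minus strand: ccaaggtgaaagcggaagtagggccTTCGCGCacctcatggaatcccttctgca

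Of the 18 members with an E2F-type word, 9 were lower in IGF2BP3 KD cells. Of the 17 members without one in the window searched 4 were lower, namely *BRCA1*, *BRCA2*, *ATR* and *UBE2T*. A window need not lie at the start of the canonical transcript, and other starts of a gene were not searched. That of *BRCA1*, chr17:43170278-43170577, lies beyond the upstream end of the gene in GENCODE. That of *RAD51B*, which held no word, lies wholly inside its gene (chr14:67823291-67823590). So do the windows of *RBBP8*, *FAN1*, *MUS81*, *RAD50* and *BRCA2*, which held no word. The same is true of *FANCC*, *RAD51D*, *RAD54L*, *FANCA* and *TOPBP1*, which held one, so the split into 18 and 17 members depends on the starts used. Whether these genes hold a word at another start is thus not known. Among all coding genes with a promoter entry, 19.5% of those with the word and 13.5% of those without it were lower. A match of these letters describes the window and says nothing about binding. CCAAT was found in 15 of the 35 member promoters (42.9%, against 36.5% of coding promoters). TTTGAA or TTCGAA, the cell cycle homology element, was found in 4 (11.4%, and the same share of coding promoters). Of the 15 with CCAAT 5 were lower, and of the 20 without it 8. Of the 4 with the other element 2 were lower, and of the 31 without it 11. Among coding genes, 15.9% of those with CCAAT and 14.1% of those without it were lower. For the other element these shares were 15.8% and 14.6%.

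The depth was 58966114 to 69989087 counts in control libraries and 53424071 to 63008137 in IGF2BP3 KD libraries, with mitochondrial genes at 8.67% to 9.06%. Levels are CPM, that is counts scaled to a common library total, after TMM correction for library composition. *IGF2BP3*, the target, had 108 ± 2.92 CPM in control and 13.3 ± 0.996 CPM in IGF2BP3 KD libraries (SD, n = 3), and no library went against its label. All 10 epithelial markers were above 1 CPM in each library. Their summed level was 19125 to 20147 CPM in control and 20785 to 21249 CPM in IGF2BP3 KD libraries, of which *ERBB2* alone made up 12478 to 13396 and 14124 to 14653 CPM. The other 9 summed to 6647 to 6751 and 6551 to 6666 CPM, which overlapped, and of all 10 markers 3 were lower and 3 higher. The summed level of 8 fibroblast markers was 21.2 to 24.6 and 29.9 to 34.4 CPM, almost all *COL1A1*, with *COL1A2* and *LUM* at 0. The 8 leukocyte markers summed to 2506 to 2734 and 2543 to 2616 CPM, nearly all *LYZ*, with *CD3D* and *CD3E* at 0, and the 6 endothelial markers to at most 0.581 CPM. *CD68* went from 32.8 to 37.5 CPM in control to 48.7 to 54.1 CPM in IGF2BP3 KD libraries, and was the 1 of 3 tested leukocyte markers that was higher, at a log2 fold change of 0.54. All IGF2BP3 KD values lay under the control values in 3 of the 10 epithelial markers, *ELF3* among them. They lay over them in 5, *ERBB2* among them (17.8% and 18.0% of all genes tested). The ranges of *COL1A1* and *CD68* did not overlap between the groups either. The part of these shifts in the results below was not tested.

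All 37 members passed the low-count filter and were tested, and their smallest count in any library was 211, in *RAD51B*. By the quasi-likelihood test of edgeR, at a Benjamini-Hochberg adjusted p under 0.05, 14 members were lower in IGF2BP3 KD cells, 0 were higher and 23 were not called. Over all 19778 genes tested, 10.6% were lower and 9.87% were higher. At an unadjusted p under 0.05, 19 members were lower and 2 were higher, against 3024 and 3061 of the 19778 genes tested. DESeq2 called 16 members lower and 0 higher at an adjusted p under 0.05, against 2415 and 2074 of these genes. The median log2 fold change of the members was -0.16, against 0.0098 over all genes tested, and 32 of 37 members had a value below 0. The falls were moderate, from 11.7% in *XRCC2* to 40.7% in *CLSPN*. All values of IGF2BP3 KD libraries lay under all control values in 21 members, as in 17.8% of genes tested, and over them in 3 members, as in 18.0% of genes tested. Since well-expressed genes are called more often, the members were also set beside the 9267 coding genes with a control mean between 5.86 and 174 CPM, the range of the members. Of these, 16.7% were lower and 15.5% higher, with a median of -0.01, and in 25.5% all IGF2BP3 KD values lay under the control values. With 3 libraries in each group, the lowest p that exact permutation of a single gene can reach is 0.1, so single genes rest on the fit across all genes. In RNA from a whole culture, fewer cells in the phase that transcribes a gene and less RNA per cell cannot be told apart. By flow cytometry the paper reports an inhibited G1-S transition in IGF2BP3 KD OE-19 cells. The part of such a shift in these values was not tested.

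**Figure D1:**
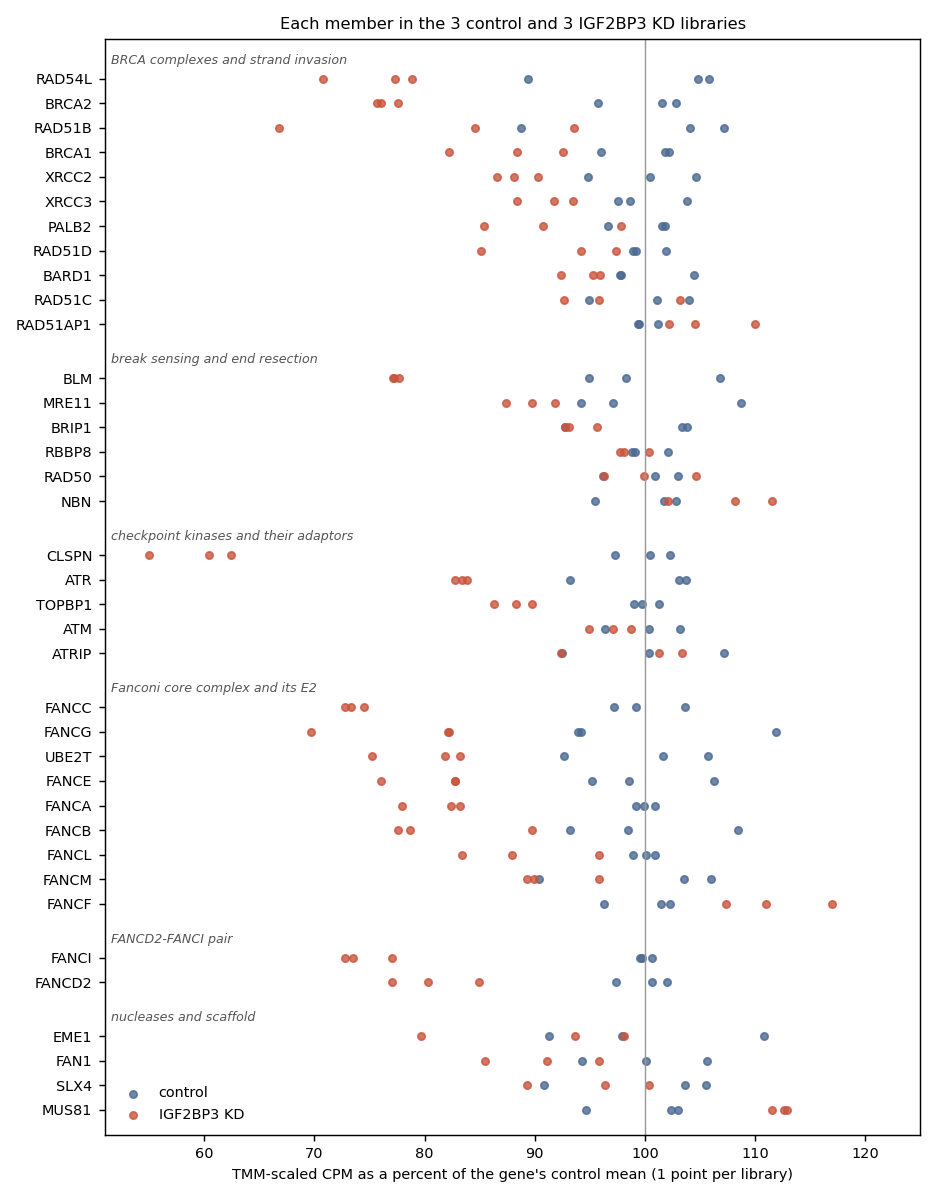
Each row is 1 member and each point 1 library, plotted as TMM-scaled CPM in percent of the gene's control mean, with blue for control and red for IGF2BP3 KD. *CLSPN* lies furthest left, the 3 red points are left of all blue points in 21 members, and they are right of them in *RAD51AP1*, *FANCF* and *MUS81*.

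Among the checkpoint kinases and their adaptors, 3 of 5 members were lower. Counts by role, here and below, stand beside 10.6% lower among all genes tested. *CLSPN* (ENSG00000092853, chr1:35720218-35769978 on hg38, as for all genes below), which encodes claspin, the adaptor through which ATR activates CHK1, had the largest fall of the whole set. Its level was 50.4, 52.1 and 53.1 CPM in control replicates 1, 2 and 3 and 31.3, 28.5 and 32.4 CPM in IGF2BP3 KD replicates 1, 2 and 3. The groups were far apart, with a log2 fold change of -0.75 with a standard error (SE) of 0.06 (edgeR, Benjamini-Hochberg adjusted p = 8.0e-06). By the size of its fall *CLSPN* ranked 734 of all 19778 genes tested. *ATR* (ENSG00000175054, chr3:142449007-142578733), the kinase that answers to single-stranded DNA at stalled forks, had 96.4, 86.6 and 95.7 CPM in control and 77.5, 77.9 and 76.9 CPM in IGF2BP3 KD libraries. Its IGF2BP3 KD values were nearly equal and all under the lowest control value, and the log2 fold change was -0.26 (SE 0.05, adjusted p = 0.0023). *TOPBP1* (ENSG00000163781, chr3:133598175-133662380), whose protein switches ATR on, had 157, 155 and 154 CPM in control and 139, 134 and 137 CPM in IGF2BP3 KD libraries. The fall was small and even between libraries, at -0.18 (SE 0.03, adjusted p = 0.0019).

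The other members of this group stayed near their control level. *ATRIP*, the partner that brings ATR to single-stranded DNA, had a log2 fold change of -0.01 with a 95% interval of -0.20 to 0.17, and its groups overlapped. *ATRIP* shares 1448 exonic bases with *TREX1* on the same strand, so its counts are uncertain. *ATM*, the kinase that responds to double-strand breaks, had 116, 113 and 108 CPM in control and 111, 107 and 109 CPM in IGF2BP3 KD libraries. The groups overlapped, and the log2 fold change of *ATM* was -0.05 (95% interval -0.13 to 0.04, adjusted p = 0.48). A difference between *ATR* and *ATM* in their change was not tested.

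Both members of the FANCD2-FANCI pair, the clamp that the core complex marks with ubiquitin, were lower. *FANCI* (ENSG00000140525, chr15:89243945-89317261) had 174, 174 and 176 CPM in control libraries and 127, 128 and 134 CPM in IGF2BP3 KD libraries. The spread within each group was small beside the distance between them, and *FANCI* had the smallest p of the set, with a log2 fold change of -0.43 (SE 0.03, adjusted p = 6.8e-06). *FANCI* shares 458 exonic bases with *POLG* on the opposite strand, which was also lower (-0.27, adjusted p = 0.0098), and the summed CPM of both genes had a log2 ratio of -0.38. *FANCD2* (ENSG00000144554, chr3:10026370-10101932) had 57.4, 59.3 and 60.1 CPM in control and 50.04, 47.4 and 45.4 CPM in IGF2BP3 KD libraries. The groups did not overlap, and the log2 fold change was -0.31 (SE 0.05, adjusted p = 0.0015).

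In the Fanconi core complex and its E2, 4 of 9 members were lower. *FANCC* (ENSG00000158169, chr9:95099054-95426796), which sits with FANCE and FANCF in one arm of the complex, had 44.6, 47.6 and 45.5 CPM in control and 33.7, 34.2 and 33.4 CPM in IGF2BP3 KD libraries. These groups were well apart, at a log2 fold change of -0.44 (SE 0.05, adjusted p = 1.3e-04). *FANCA* (ENSG00000187741, chr16:89726683-89816977), the subunit most often mutated in Fanconi anemia, had 63.2, 62.8 and 63.8 CPM in control and 52.1, 52.7 and 49.3 CPM in IGF2BP3 KD libraries. Control values of *FANCA* were almost identical, and the log2 fold change was -0.30 (SE 0.05, adjusted p = 8.9e-04). *FANCA* overlaps *ZNF276* on the opposite strand by 2409 exonic bases. *ZNF276* had 0.14 (adjusted p = 0.17), and the summed CPM of both had a log2 ratio of -0.17. *UBE2T* (ENSG00000077152, chr1:202331544-202341984), the E2 enzyme that hands ubiquitin to the complex, had 34.5, 31.5 and 35.9 CPM in control and 27.8, 25.5 and 28.3 CPM in IGF2BP3 KD libraries. It overlaps no other gene, its groups did not overlap, and the log2 fold change was -0.32 (SE 0.07, adjusted p = 0.0065).

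*FANCG* (ENSG00000221829, chr9:35073835-35080004), which binds FANCA, had 34.7, 41.3 and 34.6 CPM in control and 25.7, 30.3 and 30.3 CPM in IGF2BP3 KD libraries. The highest control and the lowest IGF2BP3 KD value stood apart from the others. The log2 fold change was -0.36 (SE 0.09, adjusted p = 0.0129), and the call was lost without control replicate 2 (-0.27, adjusted p = 0.0530) and without IGF2BP3 KD replicate 1 (-0.29, adjusted p = 0.0566).

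The remaining core subunits were not called. *FANCE*, of the same arm as *FANCC*, had a log2 fold change of -0.31 and *FANCB*, the partner of FANCL, one of -0.29, with adjusted p of 0.068 and 0.082. Both are low genes, at 8.68 ± 0.496 and 11.0 ± 0.853 CPM in control libraries (SD, n = 3), with standard errors of 0.11 and 0.10. *FANCL*, the E3 ligase subunit, had -0.17 (adjusted p = 0.082), and passed the test without IGF2BP3 KD replicate 1 (-0.23, adjusted p = 0.0370). *FANCM*, the translocase that anchors the complex on DNA, had -0.12 (95% interval -0.31 to 0.06). *FANCF*, the adaptor between the arms, was the only subunit with a value above 0: it had 31.8, 29.97 and 31.6 CPM in control and 36.4, 34.6 and 33.4 CPM in IGF2BP3 KD libraries. The groups of *FANCF* did not overlap, and its log2 fold change of 0.16 (SE 0.06) missed the threshold at an adjusted p of 0.081. Within the arm of *FANCC*, *FANCE* and *FANCF*, values thus ran from -0.44 to 0.16, and the difference between these subunits was not tested.

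**Figure D2:**
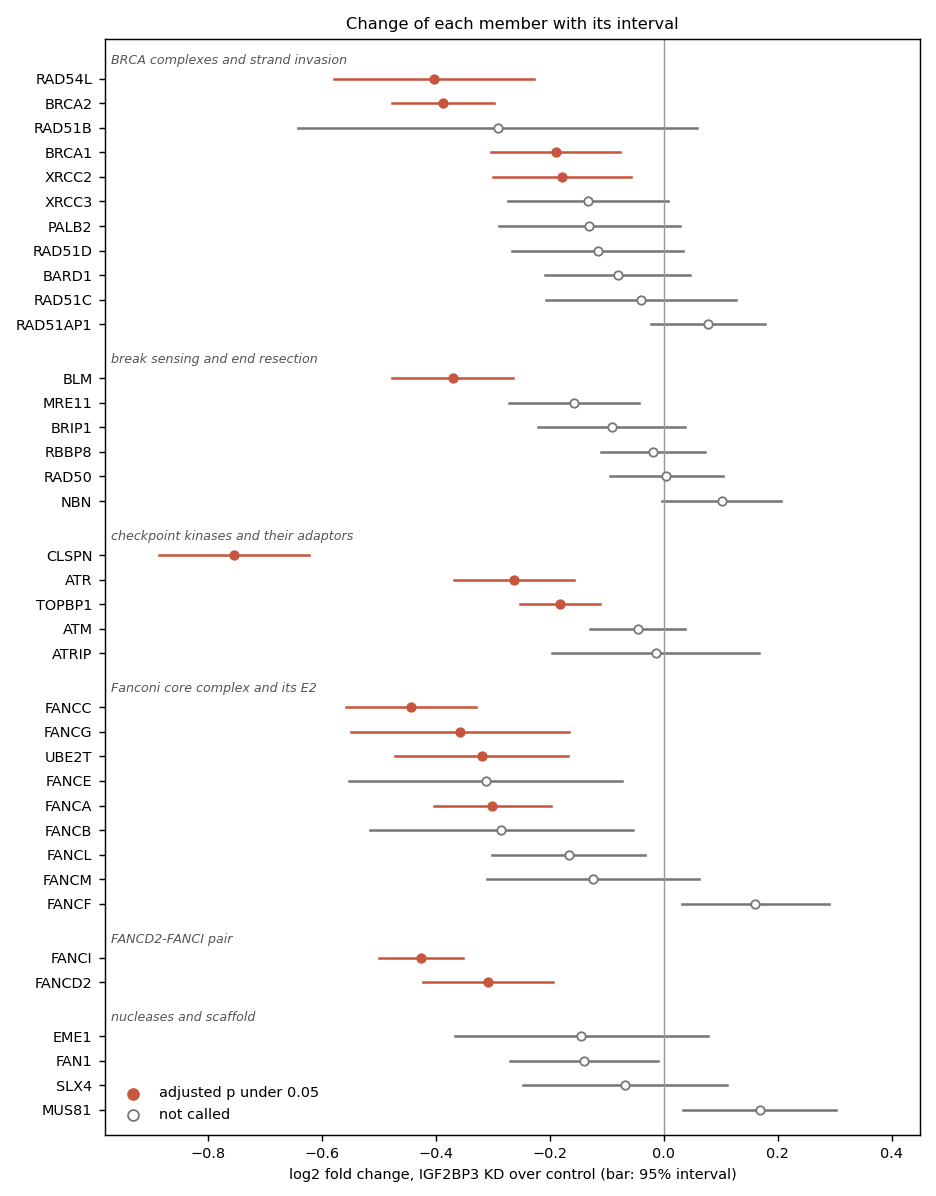
Log2 fold changes of the 37 members, IGF2BP3 KD over control, by role, with bars for the 95% interval, filled red points for the 14 members called lower and open points for the 23 not called. *CLSPN* is lowest at -0.75 and *MUS81* highest at 0.17, and the nucleases hold no called member.

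Of the genes of the BRCA complexes and of strand invasion, 4 of 11 members were lower. *BRCA2* (ENSG00000139618, chr13:32315086-32400268), which prepares the single strand for invasion, had 107, 99.6 and 106 CPM in control and 80.7, 79.1 and 78.7 CPM in IGF2BP3 KD libraries. It overlaps no other gene and its IGF2BP3 KD values lay close together, and the log2 fold change was -0.39 (SE 0.04, adjusted p = 5.7e-05). *RAD54L* (ENSG00000085999, chr1:46246461-46278480), a motor protein that helps strand invasion, had 29.2, 28.9 and 24.7 CPM in control and 21.3, 21.7 and 19.5 CPM in IGF2BP3 KD libraries. Its groups did not overlap, and the log2 fold change was -0.40 (SE 0.08, adjusted p = 0.0040). *RAD54L* shares 813 exonic bases with *LRRC41* on the opposite strand. *LRRC41* had 0.01 (adjusted p = 0.97), and the summed CPM of both had a log2 ratio of -0.17.

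*BRCA1* and *XRCC2* were near the threshold. *BRCA1* (ENSG00000012048, chr17:43044295-43170245), a ubiquitin ligase that favours end resection and binds PALB2, had 83.1, 78.4 and 83.5 CPM in control and 75.6, 67.1 and 72.2 CPM in IGF2BP3 KD libraries. The groups did not overlap, and the log2 fold change was -0.19 (SE 0.05, adjusted p = 0.0229). *BRCA1* shares 120 exonic bases with *RP11-242D8.1* on the same strand, which had 0.15 (adjusted p = 0.17), and the summed CPM of both had a log2 ratio of -0.11. The call was lost without control replicate 1 (adjusted p = 0.0581), control replicate 3 (0.0895), IGF2BP3 KD replicate 2 (0.0942) or IGF2BP3 KD replicate 3 (0.0595), with log2 fold changes between -0.23 and -0.15 over the 6 fits that each left out 1 library. *XRCC2* (ENSG00000196584, chr7:152644776-152676193), which takes part in strand invasion, had 48.0, 43.5 and 46.1 CPM in control and 41.4, 39.7 and 40.4 CPM in IGF2BP3 KD libraries. These groups were apart as well, at -0.18 (SE 0.05, adjusted p = 0.0398). Its call held in 1 of 6 such fits, the one without control replicate 2. The largest adjusted p was 0.123, without control replicate 1, and it was 0.103 without control replicate 3 and 0.0745, 0.112 and 0.1015 without IGF2BP3 KD replicates 1, 2 and 3.

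The other members of this group were not called. *PALB2*, the bridge between BRCA1 and BRCA2, had 21.0, 21.1 and 20.01 CPM in control and 17.7, 18.8 and 20.3 CPM in IGF2BP3 KD libraries. IGF2BP3 KD replicate 3 lay within the control range, and the log2 fold change of *PALB2* was -0.13 (95% interval -0.29 to 0.03, adjusted p = 0.26). The genes *RAD51B*, *XRCC3*, *RAD51D* and *RAD51C* had -0.29, -0.13, -0.12 and -0.04, with adjusted p of 0.19 to 0.78. *XRCC3* shares 5756 of its 7507 exonic bases with the more abundant *KLC1* on the opposite strand, so its counts are uncertain to that extent. *KLC1* had -0.08 (adjusted p = 0.20), and the summed CPM of both had a log2 ratio of -0.09. *RAD51B*, the lowest member by CPM, had the widest interval (-0.64 to 0.06). *BARD1*, the partner of BRCA1 in the ligase, had -0.08 (95% interval -0.21 to 0.05). *RAD51AP1*, which stimulates strand invasion, had 64.9, 63.7 and 63.8 CPM in control and 70.5, 67.1 and 65.5 CPM in IGF2BP3 KD libraries. All its IGF2BP3 KD values lay above the control values, but the log2 fold change of 0.08 (95% interval -0.02 to 0.18) did not pass the test (adjusted p = 0.28).

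In break sensing and end resection, 1 of 6 members was lower (16.7%). This is near the share of coding genes in the members' CPM range that were lower (16.7%). *BLM* (ENSG00000197299, chr15:90717346-90816166), a helicase that takes part in long-range resection and in dissolving the joint molecules of recombination, had 101, 89.6 and 92.8 CPM in control and 73.3, 72.9 and 72.8 CPM in IGF2BP3 KD libraries. Its values in IGF2BP3 KD libraries were almost the same and under all control values, and the log2 fold change was -0.37 (SE 0.05, adjusted p = 2.5e-04). The MRE11-RAD50-NBN complex, which holds and trims broken ends, had no called subunit. *MRE11*, its nuclease, had 127, 113 and 109.8 CPM in control and 107, 102 and 105 CPM in IGF2BP3 KD libraries. The groups were apart, and the log2 fold change of -0.16 (SE 0.05) missed the threshold at an adjusted p of 0.0545. It passed with DESeq2 (adjusted p = 0.00985) and without control replicate 3 (adjusted p = 0.0365), while its value was -0.10 without control replicate 1. *RAD50* had 0.00 (95% interval -0.09 to 0.10) and *NBN* 0.10 (95% interval -0.003 to 0.21). *NBN* shares 827 exonic bases with *OSGIN2* on the opposite strand, which had -0.01, and their summed CPM had a log2 ratio of 0.05. *RAD50* shares 8124 of its 10565 exonic bases with a readthrough gene on its strand, which had 30, 175 and 32 counts in control and 410, 30 and 0 in IGF2BP3 KD libraries, so its counts are uncertain to that extent. *RBBP8*, whose product CtIP starts resection, had -0.02 (95% interval -0.11 to 0.07), and the helicase *BRIP1* had -0.09 (95% interval -0.22 to 0.04).

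No member was called among the nucleases that cut at crosslinks and joined strands and their scaffold, and 1 of the 4 had an unadjusted p under 0.05 in each direction. *FAN1*, a nuclease recruited by ubiquitinated FANCD2, had a log2 fold change of -0.14 (adjusted p = 0.13), *SLX4*, the scaffold, -0.07, and *EME1*, the partner of MUS81, -0.14. *EME1* shares 541 exonic bases with the far more abundant *LRRC59* on the opposite strand, which was higher (0.11, adjusted p = 0.0128), and the summed CPM of both had a log2 ratio of 0.10. *FAN1* shares 1507 with *MTMR10* on the opposite strand, which had -0.01, and that sum had -0.07. *MUS81*, the catalytic subunit, had 22.3, 24.3 and 24.2 CPM in control and 26.6, 26.3 and 26.6 CPM in IGF2BP3 KD libraries. Its groups did not overlap, and its log2 fold change of 0.17 (SE 0.06) missed the threshold at an adjusted p of 0.080. *MUS81* shares 759 exonic bases with the far more abundant *CFL1* on the opposite strand, which had -0.02, as did the sum of both.

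**Figure D3:**
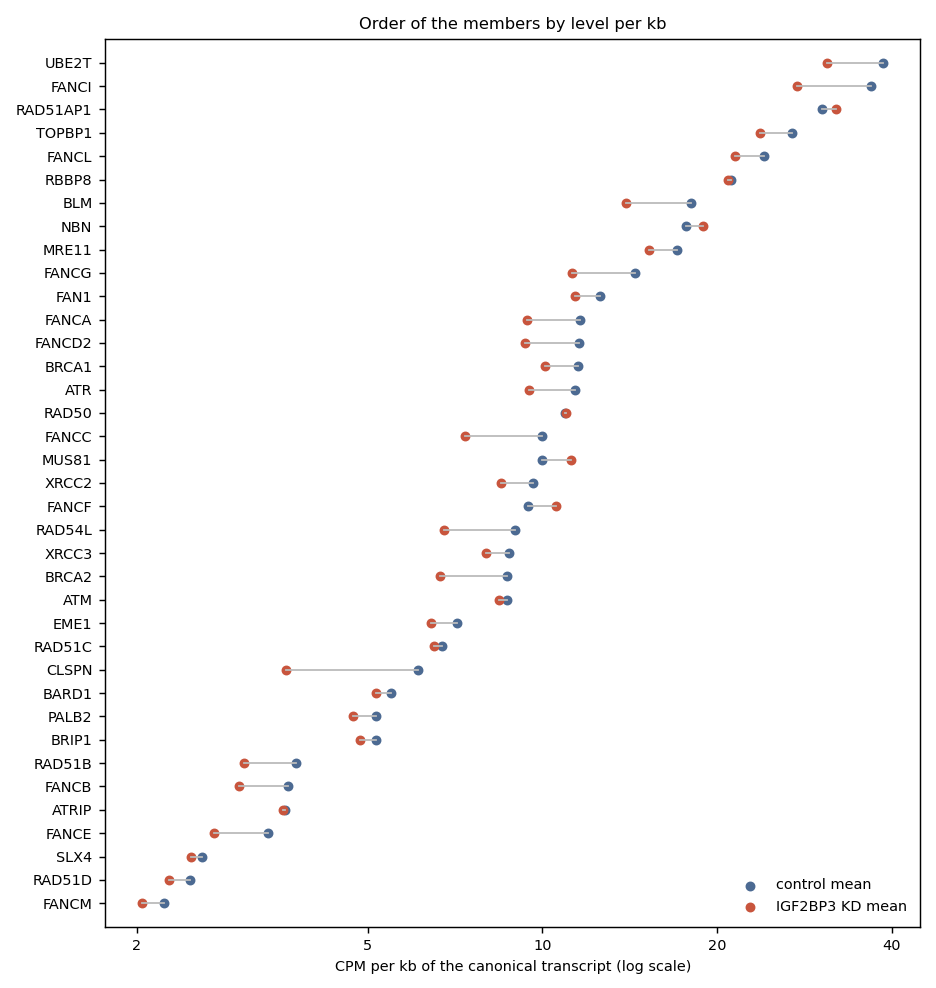
Mean level of each member per kb of its canonical transcript on a log axis, with blue for control and red for IGF2BP3 KD and a grey line joining them. *UBE2T*, at 38.7 CPM per kb, heads the control order and *FANCM*, at 2.23 CPM per kb, closes it.

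The levels of the members were compared per length, as CPM per kb of the canonical transcript. In control libraries *UBE2T* (38.7), *FANCI* (36.9), *RAD51AP1* (30.4), *TOPBP1* (26.9) and *FANCL* (24.1) were highest. The lowest were *SLX4* (2.60), *RAD51D* (2.47) and *FANCM* (2.23). Of the 36 pairs of neighbours in this order, 21 had control ranges that touched, so their order is not resolved. *UBE2T* and *FANCI* were such a pair, at 35.9 to 40.9 and 36.7 to 37.1 CPM per kb. *FANCA*, *FANCD2*, *BRCA1*, *ATR* and *RAD50* formed a run of touching neighbours between 10.9 and 11.6 CPM per kb. Another ran from *FANCC* over *MUS81*, *XRCC2*, *FANCF*, *RAD54L*, *XRCC3* and *BRCA2* to *ATM*, between 8.69 and 10.0 CPM per kb. The places of *RAD50* and *XRCC3* are uncertain, since both share most of their exonic bases with another gene. *CLSPN* went from 6.09 to 3.61 CPM per kb.

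Across the 37 members, the log2 fold change had weak correlations with control level (Pearson's r = -0.09, Spearman's rho = -0.15), transcript length (r = -0.08, rho = -0.02) and GC content (r = -0.05, rho = -0.16), given as a description over genes that share the same 6 libraries. The members had a median transcript of 4733 bases and a median GC content of 42.8%, against 3417 bases and 48.4% in coding genes of the same CPM range. Exons of 27 of the 37 members overlap another gene, among them 11 of the 14 lower ones, and the strand setting of the counting is not given in the sources used here. *BRCA2*, *XRCC2* and *UBE2T* were lower and overlap none.

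Words in the 3′ UTR of the canonical transcripts (GENCODE) were counted beside these changes. Of the coding genes with GATTACT 376 of 1072 were lower, and of those without it 1621 of 12846. How GATTACT and ACACATC were picked is not given here, so these counts are a description and not independent evidence. Among the members GATTACT was found in 2 of 37 (5.41%, against 7.70% of 13918 coding genes), in *BARD1*, which was not called, and in *FANCC*, which was lower. Of the 35 members without it, 13 were lower, with a median log2 fold change of -0.16. The sites are shown with 8 bases on each side and the word in capitals.
BARD1, base 966 of a 3′ UTR of 3030 bases: aagttggtGATTACTtgatttac
FANCC, base 836 of a 3′ UTR of 2653 bases: ggcaggggGATTACTtcagccca

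ACACATC was found in *FANCC*, *RAD51D* and *XRCC3* (8.11%, against 9.53% of coding genes). Of these 3 members 1 was lower, and of the 34 without it 13. Among coding genes, 142 of 1327 with ACACATC and 1855 of 12591 without it were lower, with median log2 fold changes of 0.11 and -0.01. TGGAC, which contains the GGAC core of the m6A consensus, was in the 3′ UTR of 17 members (45.9%) and of 61.4% of coding genes, whose median 3′ UTR is longer (1256 against 1054 bases). Of the 17 members with TGGAC 8 were lower, and of the 20 without it 6. Among coding genes, 1331 of 8540 with TGGAC and 666 of 5378 without it were lower. Differences between members with and without a word were not tested.

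The rest of the repair network was read from 4 lists of other genes. Among all genes tested, 10.6% were lower and 9.87% higher. In coding genes of the members' CPM range these shares were 16.7% and 15.5%. Of 28 other homologous recombination genes, 11 were lower and 1 higher, and the median change on the log2 scale was -0.13. The smallest p among the lower ones belonged to *MCM8* (-0.53, SE 0.05), a helicase subunit of recombination, *FIGNL1* (-0.43, SE 0.05), which acts in recombination, the resection nuclease *DNA2* (-0.51, SE 0.07) and *GEN1* (-0.35, SE 0.05), which cuts joint molecules. The higher one was *SWI5* (0.31, SE 0.09), a cofactor of strand exchange, whose call held only without IGF2BP3 KD replicate 1 among the 6 fits that left out a library (adjusted p of 0.0139 there and up to 0.156 in the others).

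Of 19 other genes of the Fanconi pathway and crosslink repair, 3 were lower and 0 higher (0 at an unadjusted p under 0.05 and 0 with DESeq2), with a median of -0.05. The share of lower genes, 15.8%, is near the 16.7% of coding genes in the members' CPM range. The 3 lower genes were *RFWD3* (-0.26, SE 0.04), a ubiquitin ligase acting on RPA, the nuclease *DCLRE1B* (-0.52, SE 0.10) and *CENPS* (-0.31, SE 0.09), which binds FANCM. The call of *CENPS* held only without IGF2BP3 KD replicate 2 among those 6 fits, with an adjusted p of up to 0.103 in the others.

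Of 20 other checkpoint genes and damage mediators, 9 were lower and 0 higher (1 at an unadjusted p under 0.05 and 0 with DESeq2), with a median of -0.13. *CHEK1* (-0.45, SE 0.05) encodes CHK1, the kinase that claspin presents to ATR, and *TIPIN* (-0.70, SE 0.08) a fork protein that works with TIMELESS and claspin. *WEE1* (-0.84, SE 0.05) and *CHEK2* (-0.58, SE 0.06) were also lower. The study had chosen both on these libraries, so their values here are not independent evidence of the direction. It then reported both as reduced by qPCR in IGF2BP3 KD OE-19 cells.

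Of 21 end joining genes, 8 were lower and 0 higher (0 at an unadjusted p under 0.05 and 0 with DESeq2), with a median of -0.14. They included *PRKDC* (-0.38, SE 0.02), the DNA-dependent kinase, *PARP1* (-0.30, SE 0.02), the Ku subunit *XRCC6* (-0.23, SE 0.02) and *RIF1* (-0.34, SE 0.05), which limits resection. The share of lower genes was 38.1% in this list and 37.8% among the members, and a difference between the lists was not tested.

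**Figure D4:**
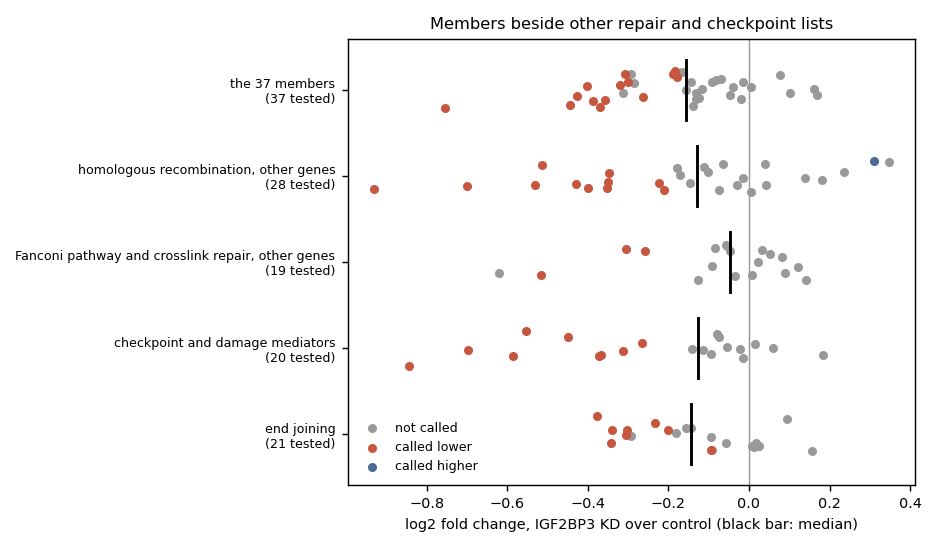
Log2 fold changes, IGF2BP3 KD over control, of the members and of the 4 other lists, with 1 point per gene, red for called lower, blue for called higher, grey for not called and a black bar for the median. The vertical scatter within a list has no meaning, and the medians lie between -0.16 and -0.05.

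**Figure D5:**
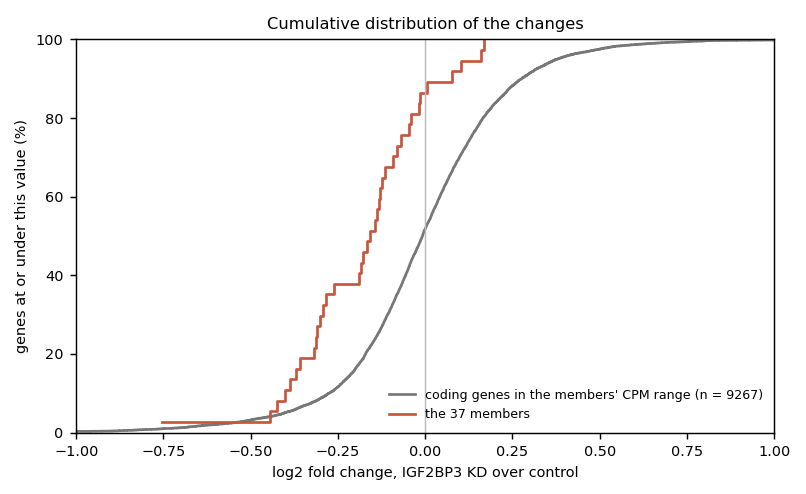
Share of genes at or under each log2 fold change, in red for the 37 members and in grey for the 9267 coding genes in the CPM range of the members. The red curve lies left of the grey one over most of its course, with medians of -0.16 and -0.01, and its lowest step is *CLSPN*.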

How the data were processed

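RNA-seq of OE-19 cells was analysed from the 6 libraries the labels assign to control and IGF2BP3 KD. According to the paper's methods and the submitters' processing notes, the authors cleaned reads with fastp, aligned paired reads to hg38 with HISAT2 and counted them per gene with featureCounts, and the deposited values are raw counts, without normalization. Tool versions, annotation release and strand setting are not given in the sources used here. The 132 repeated entries of 44 identifiers were left out, and no 2 libraries agreed within sampling noise.

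The quasi-likelihood test of edgeR 4.0.16 (R 4.3.3) was run on counts scaled by TMM and filtered with filterByExpr (minimum count 10, total 15). No block was fitted, and p-values were adjusted over 19778 genes by the Benjamini-Hochberg method, with calls at 0.05. The square root of the common dispersion was 0.148, and the depth limits the lowest members most. The script was tested on simulated data. CPM is TMM-scaled. Gene positions, transcripts, 3′ UTRs and overlaps are from GENCODE 44 on hg38, promoters from RefSeq on GRCh38.p14. Stretches of promoter extend 25 bases either side of the word and at most 30 bases past the start.

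The members and gene lists were chosen with earlier results of these data known. Library values are given for each member with an adjusted p under 0.05 and, whatever their p, for *BRCA1*, *BRCA2*, *PALB2*, *ATM*, *ATR*, *FANCA*, *FANCD2*, *FANCI* and *RAD51AP1*. Those of *MRE11*, *FANCF* and *MUS81* were added after their values were seen. From each other list at most 4 called genes in each direction, those with the smallest p, are named, and 1 gene is not reported here. Alternatives were DESeq2 1.42.0, RLE scaling, other filters, a replicate block, each library left out, an adjusted p under 0.01, coding genes only, and trends on GC content or length removed (lowess span 0.3).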

Additional observations from a re-analysis of the deposited data

How the results depend on the processing

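Of the 14 lower members, 11 kept the call whichever of the 6 libraries was left out, and 12 to 13 members were lower in such a fit. Over the other alternatives between 11 (adjusted p under 0.01) and 16 (DESeq2, coding genes only, and GC trend removed) were lower, and 0 were higher except *FANCF* (1 member) with the GC trend removed. Of the members not called, *MRE11* was also lower with at least 10 counts in every library, coding genes only, the replicate block and the GC trend removed, *FANCE* with coding genes only and the GC trend removed, and *FANCL* with DESeq2 and the length trend removed. *XRCC2* lost its call with no low-count filter and with the length trend removed. The median of the members lay between -0.19 and -0.14 over all alternatives. The replicate numbers did not pair the libraries (correlations of same-numbered deviations of -0.0761, -0.190 and -0.202 over 11531 genes). With the replicate block, 15 members were lower and 0 higher. At an adjusted p under 0.01, 1314 genes were lower and 1098 higher. Of the other homologous recombination genes, 0 were called higher with no low-count filter, the replicate block (with and without a trend removed), the length trend removed and an adjusted p under 0.01, 2 with coding genes only or the GC trend removed, and 0 to 1 with each library left out. In the other Fanconi list, 0 to 1 were higher with each library left out, the 1 without control replicate 3. The sign of *RAD50* reversed with DESeq2 (-0.002458), no filter (-0.004948), at least 10 counts in every library (-0.000117) and, leaving out libraries, ranged from -0.0282 to 0.0284, and that of *ATRIP* from -0.0702 to 0.0363, both far from a call. The cause was not tested.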
